A study of Mus musculus with 6 samples.

Results

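The genes examined here were 10 genes of the acute inflammatory response and of its control by NF-κB, chosen by name from the 54532 genes in the deposited table, and all 10 had an entry. They are the cytokine genes *Tnf*, *Il1a*, *Il1b*, *Il6* and *Il18*, the IL-1 receptor antagonist gene *Il1rn*, the inflammasome sensor gene *Nlrp3*, and *Nfkbia*, *Tnfaip3* and *Relb* of the NF-κB pathway. Lungs were perfused and poly-A RNA of the whole organ was sequenced from untreated mice of 2 months of age, 3 of them WT and 3 ISM1-KO (*ISM1*-/-), each giving 1 library. WT animals were bought as C57BL/6J mice while the ISM1-KO line was generated in-house on that background, so genotype and animal source cannot be told apart. The comparison asked whether these genes differed in lungs lacking ISM1 before any allergen was given. The targeted gene, *Ism1*, had 2975 to 3215 counts in WT and 2508 to 2953 in the libraries labelled ISM1-KO, which put its log2 fold change at −0.19 ± 0.0709 (standard error), with an adjusted p = 0.217 in the quasi-likelihood test of edgeR. These libraries thus held *Ism1* transcript, and the genotype rests on the label. In whole-lung RNA, fewer cells of a type and less RNA per cell cannot be told apart.

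NF-κB is a family of transcription factors that IκB proteins hold in the cytoplasm. Signals from TNF, IL-1 or microbial receptors lead to the destruction of IκB, and NF-κB then enters the nucleus and switches on cytokine genes together with genes that end the response, *Nfkbia* and *Tnfaip3* among them. IL-1β and IL-18 are made as inactive precursors, which caspase-1 cuts once an inflammasome such as that of NLRP3 has formed. In the lung, macrophages, monocytes and neutrophils are main sources of TNF and IL-1β, and airway and alveolar epithelium responds to them.

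Of the 10 genes, *Il1b* rose in the libraries labelled ISM1-KO and none fell. *Il1b* was 1.52-fold higher than in WT (log2 fold change 0.60 ± 0.166 as standard error). Its Benjamini-Hochberg adjusted p = 0.0997 in edgeR lay just inside the threshold of 0.1. *Tnf* had the largest estimate, a log2 fold change of 0.65, but its genotypes overlapped and it did not pass. The IκBα gene *Nfkbia*, the most abundant of the 10, was at 96.4% of its WT mean. *Il6* was barely detected in either genotype.

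Counts were scaled to CPM, a gene's count relative to its library's total as adjusted by the TMM method of edgeR. A gene was tested if any 1 library reached 0.5 CPM, which left 18689 genes. The filter passed 9 of the 10 genes, with *Il6* left out. Of these 9, 1 was called higher at an adjusted p under 0.1, where 1.38% of all genes tested were called higher and 4.72% were called in either direction. None was called lower, where 3.34% of all genes were, and the DESeq2 Wald test also called 1 higher and none lower. An unadjusted p under 0.05 was reached by 1 of the 9, against 15.8% of all genes. None, *Il1b* included, passed with at least a 2-fold change, as 0.567% of all genes did. The genotypes did not overlap in 2 of the 9, *Il1b* and *Tnfaip3*, both higher in the libraries labelled ISM1-KO. Over all genes, 21.6% did not overlap and 9.33% did so with the libraries labelled ISM1-KO higher, so the 9 genes did not stand apart by this count. Their median log2 fold change was 0.10, beside 0.0043 over all genes tested.

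**Figure D1:**
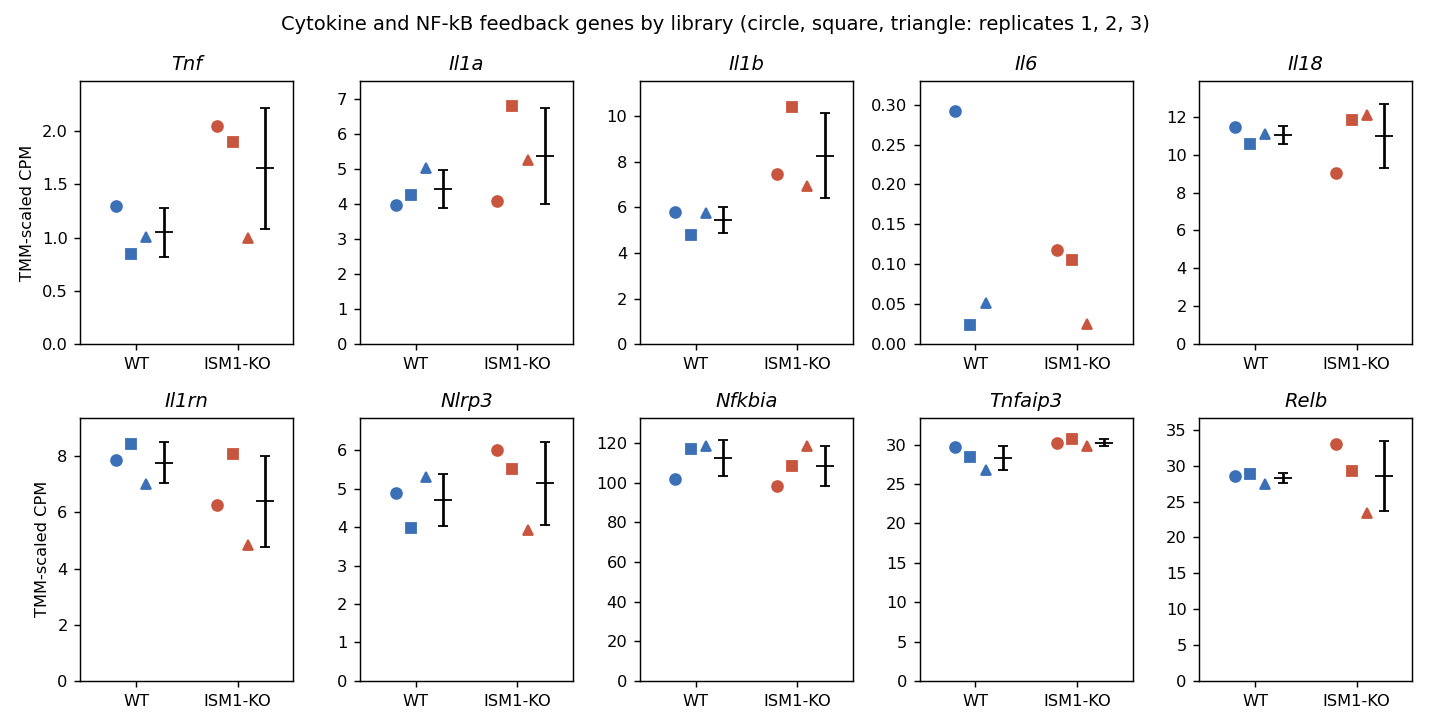
TMM-scaled CPM of each gene in the 3 WT (blue) and 3 ISM1-KO (red) libraries, with the mean and SD in black (not drawn for *Il6*, which was not tested). *Il1b* and *Tnfaip3* show no overlap between genotypes, and for *Tnf*, *Nlrp3* and *Relb* replicate 3 (triangle) is the lowest ISM1-KO library.

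The upstream sequences are shown for *Il1b*, as the gene that passed, for *Tnf*, as the gene with the largest estimate, and for *Il6* and *Nfkbia*, as the least and the most abundant. Each run is the 250 bases before the RefSeq start of the gene, 5′ to 3′ on the gene's own strand, on GRCm38.p6. Capitals mark matches to the κB consensus motif, which NF-κB dimers bind, or to TATAAA, a core promoter element, each searched on both strands. The windows are chr2:129371140-129371389 (minus strand) for *Il1b*, chr17:35202008-35202257 (minus strand) for *Tnf*, chr5:30012864-30013113 (plus strand) for *Il6* and chr12:55492648-55492897 (minus strand) for *Nfkbia*.
Il1b: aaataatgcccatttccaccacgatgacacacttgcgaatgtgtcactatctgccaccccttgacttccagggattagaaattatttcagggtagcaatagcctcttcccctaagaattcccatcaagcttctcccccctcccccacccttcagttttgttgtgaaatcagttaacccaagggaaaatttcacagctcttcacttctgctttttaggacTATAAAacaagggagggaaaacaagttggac
Tnf: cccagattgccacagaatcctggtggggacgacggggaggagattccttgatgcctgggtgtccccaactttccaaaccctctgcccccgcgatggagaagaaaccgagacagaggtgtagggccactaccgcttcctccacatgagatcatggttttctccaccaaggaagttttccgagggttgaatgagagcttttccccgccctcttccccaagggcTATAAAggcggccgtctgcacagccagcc
Il6: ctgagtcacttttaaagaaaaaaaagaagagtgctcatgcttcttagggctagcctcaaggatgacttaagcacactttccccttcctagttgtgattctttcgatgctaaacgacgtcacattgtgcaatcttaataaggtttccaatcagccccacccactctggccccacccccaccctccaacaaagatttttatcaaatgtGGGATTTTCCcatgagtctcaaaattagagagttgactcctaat
Nfkbia: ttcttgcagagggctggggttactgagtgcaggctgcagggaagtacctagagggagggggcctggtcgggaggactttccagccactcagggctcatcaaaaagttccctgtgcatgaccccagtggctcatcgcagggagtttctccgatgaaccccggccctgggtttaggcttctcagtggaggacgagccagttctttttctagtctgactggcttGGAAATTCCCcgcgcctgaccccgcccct

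RefSeq windows were matched for 9 of the 10 genes. A κB match stood in 4 of the 9, those of *Il6*, *Nlrp3*, *Nfkbia* and *Tnfaip3*, and in 7.25% of all 32851 windows of this length. In *Nfkbia* it lay 29 to 20 bases before the start and in *Il6* 44 to 35 bases before it. *Tnfaip3* had matches at 125 to 116 and at 12 to 3 bases before its RefSeq start, which lies 247 bases inside the gene as deposited. TATAAA stood in 5 of the 9 windows, *Tnf*, *Il1a*, *Il1b*, *Il18* and *Tnfaip3*, and in 12.4% of all windows. In *Il1b* it lay 31 to 26 bases before the start, in *Tnf* 29 to 24 bases and in *Il1a* 32 to 27 bases. The matches of *Il18* and *Tnfaip3* lay further off, at 175 to 170 and 225 to 220 bases before the start. The gene that passed the test held no κB match in its window, and 1 of the 2 genes without overlap, *Tnfaip3*, held both motifs. These are matches of letters, not sites shown to be used, and sequence beyond the windows was not searched.

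*Il1b* (ENSMUSG00000027398, chromosome 2, 129364570 to 129371139, minus strand) encodes IL-1β, the secreted cytokine that signals through the IL-1 receptor. It had 219, 199 and 222 counts in WT replicates 1, 2 and 3, and 318, 395 and 270 in the libraries labelled ISM1-KO. The lowest of the latter lay above the highest WT library also after scaling, with means of 5.45 ± 0.567 CPM for WT and 8.27 ± 1.88 CPM for ISM1-KO (SD, n = 3 each). The 95% interval of the log2 fold change ran from 0.23 to 0.97. The coefficient of variation was 10.4% in WT and 22.7% in ISM1-KO, where counting alone gives about 6.08%. The call held in 5 of 14 alternatives, with adjusted p between 0.0105 and 0.304. It was lost when WT replicate 1, 2 or 3 was left out (adjusted p = 0.143, 0.304 and 0.186 in edgeR), and without ISM1-KO replicate 1 or 2 (adjusted p = 0.174 and 0.261). Without ISM1-KO replicate 3 the adjusted p was 0.0479, and the log2 fold change lay between 0.40 and 0.72 over these fits. Calls over all genes moved too, with 258 called higher in the main test. They numbered 242, 35 and 88 without WT replicates 1, 2 and 3, and 78, 80 and 570 without ISM1-KO replicates 1, 2 and 3.

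An antisense gene, *Il1bos*, overlaps the start of *Il1b* on the plus strand (129369897 to 129375748). It had 16, 16 and 10 counts in WT and 31, 29 and 23 in the libraries labelled ISM1-KO, again without overlap. It was 0.96 ± 0.323 (standard error) higher on the log2 scale but did not pass (adjusted p = 0.172 in edgeR). *Il1bos* reached 0.5 CPM in no WT library, so it was tested only through the genotype in which it was higher. Whether the counting used the strand is not given in the sources used here, and reads of the overlapping part cannot be assigned with certainty to either gene.

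*Il1a* (ENSMUSG00000027399, chromosome 2, 129299610 to 129309972, minus strand), a neighbour of *Il1b*, encodes IL-1α, which acts on the same receptor and needs no cutting to be active. It had 150, 176 and 194 counts in WT and 173, 258 and 205 in the libraries labelled ISM1-KO. ISM1-KO replicate 2 was the highest library and the genotypes overlapped. The log2 fold change was 0.28, with a 95% interval from −0.14 to 0.71 (adjusted p = 0.528 in edgeR). It was 0.079 without ISM1-KO replicate 2 and 0.45 without ISM1-KO replicate 1. The noncoding gene *Gm14023* overlaps it on the other strand, with 32 to 39 counts in WT and 42 to 45 in ISM1-KO.

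*Il1rn* (ENSMUSG00000026981, chromosome 2, 24336853 to 24351494, plus strand) encodes the antagonist that occupies the IL-1 receptor without signalling. There were 297, 350 and 271 counts in WT, against 266, 307 and 189 in the libraries labelled ISM1-KO, with overlap. The log2 fold change was −0.28, with a 95% interval from −0.67 to 0.11 (adjusted p = 0.484 in edgeR). ISM1-KO replicate 3 was the lowest library, and without it the log2 fold change was −0.12. Without ISM1-KO replicate 2, the highest of the 3, it was −0.48.

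Within each library, the ratio of *Il1b* to *Il1rn* counts does not depend on how libraries are scaled. This ratio was 0.737, 0.569 and 0.819 in WT and 1.20, 1.29 and 1.43 in the libraries labelled ISM1-KO, with means of 0.708 ± 0.128 and 1.30 ± 0.118 (SD, n = 3). The genotypes did not overlap in this ratio. Whether it lies above or below 1 depends on gene length: by mean FPKM, a value per length, the ratio was 1.26 in WT and 2.32 in ISM1-KO, above 1 in both. The ratio of *Il1a* to *Il1rn* was 0.575 ± 0.122 in WT and 0.859 ± 0.218 in ISM1-KO (SD, n = 3), with overlap. The ratio of *Il1b* to *Il1a* was 1.25 ± 0.186 and 1.56 ± 0.262, also with overlap. The ratio of *Il1b* to *Nfkbia* was 0.0488 ± 0.00809 and 0.0768 ± 0.0188, without overlap. That of *Tnf* to *Tnfaip3* overlapped. *Il1b* alone already separated the genotypes, so the lack of overlap is not particular to its ratio to *Il1rn*. The ratios were formed after the values of the genes had been seen and were not tested.

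**Figure D2:**
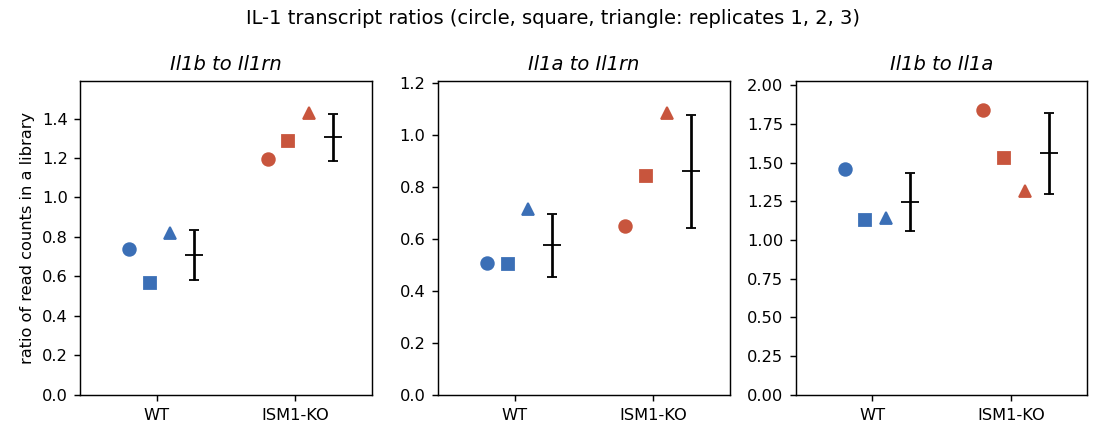
Ratios of read counts between *Il1b*, *Il1a* and *Il1rn* in each library, with the mean and SD in black. For *Il1b* to *Il1rn* the WT libraries (blue) lie from 0.569 to 0.819 and the ISM1-KO libraries (red) from 1.20 to 1.43, while the other ratios shown overlap.

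*Tnf* (ENSMUSG00000024401, chromosome 17, 35199381 to 35202007, minus strand) encodes TNFα, the founding NF-κB-inducing cytokine of its family. It had 49, 35 and 39 counts in WT and 87, 72 and 39 in the libraries labelled ISM1-KO. ISM1-KO replicates 1 and 2 lay above every WT library, while replicate 3 lay within WT, at 0.9996 CPM between the 0.843 and 1.30 CPM of WT. The means were 1.05 ± 0.231 CPM and 1.65 ± 0.566 CPM (SD, n = 3). The log2 fold change of 0.65 had a 95% interval from −0.02 to 1.33 (adjusted p = 0.335 in edgeR), so neither no difference nor a difference of 2-fold lay outside it. At such counts sampling alone gives a coefficient of variation of about 13.7%. Without ISM1-KO replicate 3 the log2 fold change was 0.91 and *Tnf* was called (adjusted p = 0.0794 in edgeR). This was the only one of 13 alternatives that called it. The fit without ISM1-KO replicate 3 called 570 of 18584 genes higher, against 258 of 18689 in the main test.

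*Il6* (ENSMUSG00000025746, chromosome 5, 30013114 to 30019981, plus strand), the gene of an acute-phase cytokine, had 11, 1 and 2 counts in WT and 5, 4 and 1 in the libraries labelled ISM1-KO. The highest value was in WT replicate 1, at 0.292 CPM, and the others lay between 0.0241 and 0.118 CPM. *Il6* did not pass the filter and was not tested. *Il18* (ENSMUSG00000039217, chromosome 9, 50554827 to 50581840, plus strand) is expressed at rest in many epithelial and myeloid cells. It had 433, 438 and 428 counts in WT and 384, 449 and 471 in the libraries labelled ISM1-KO, which lay on both sides of WT. Its log2 fold change was −0.0083, with a 95% interval from −0.28 to 0.26 (adjusted p = 0.986 in edgeR). The start of *Il18* overlaps that of *Bco2* on the other strand, which had 65 to 108 counts per library, and *Tex12* lies within it, with 0 or 1 count per library.

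*Nlrp3* (ENSMUSG00000032691, chromosome 11, 59541568 to 59566956, plus strand) encodes the sensor that assembles the inflammasome after cell damage. It had 184, 165 and 205 counts in WT, against 255, 209 and 153 in the libraries labelled ISM1-KO. As with *Tnf*, replicates 1 and 2 of ISM1-KO lay above WT in CPM and replicate 3 lay at the foot of the range, at 3.92 CPM beside the lowest WT value of 3.98 CPM. The log2 fold change was 0.13, with a 95% interval from −0.28 to 0.53 (adjusted p = 0.806 in edgeR). It was 0.0014 without ISM1-KO replicate 1 and 0.29 without replicate 3.

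*Nfkbia* (ENSMUSG00000021025, chromosome 12, 55489410 to 55492647, minus strand) encodes IκBα, which is resynthesized after NF-κB activation and returns it to the cytoplasm. It had 3838, 4866 and 4584 counts in WT and 4184, 4118 and 4627 in the libraries labelled ISM1-KO. The genotypes overlapped throughout, at 112.5 ± 9.32 CPM and 108.5 ± 10.1 CPM (SD, n = 3). The log2 fold change of −0.05 had a 95% interval from −0.24 to 0.13 (adjusted p = 0.830 in edgeR).

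*Tnfaip3* (ENSMUSG00000019850, chromosome 10, 19000910 to 19015657, minus strand) encodes A20, the ubiquitin-editing enzyme that shuts down signalling from the TNF and IL-1 receptors. It had 1121, 1178 and 1035 counts in WT and 1285, 1166 and 1161 in the libraries labelled ISM1-KO. After scaling, the libraries labelled ISM1-KO lay between 29.76 and 30.73 CPM and those of WT between 26.76 and 29.73 CPM, so the nearest libraries of the genotypes were almost level. The log2 fold change was 0.10, with a 95% interval from −0.05 to 0.24 (adjusted p = 0.538 in edgeR). *Tnfaip3* was the gene with the narrowest interval among the 9.

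*Relb* (ENSMUSG00000002983, chromosome 7, 19606217 to 19629438, minus strand) encodes the NF-κB subunit of the noncanonical branch, whose gene is itself induced by NF-κB. Its counts were 1076, 1197 and 1062 in WT, within 27.46 to 28.84 CPM. The libraries labelled ISM1-KO had 1407, 1110 and 911 counts, or 33.09, 29.25 and 23.35 CPM, on both sides of WT. The means were 28.3 ± 0.725 CPM and 28.6 ± 4.91 CPM (SD, n = 3), and the log2 fold change was 0.02 with a 95% interval from −0.23 to 0.26 (adjusted p = 0.971 in edgeR). Its direction was not stable. Without ISM1-KO replicate 1 the log2 fold change was −0.10, and without replicate 3 it was 0.14.

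**Figure D3:**
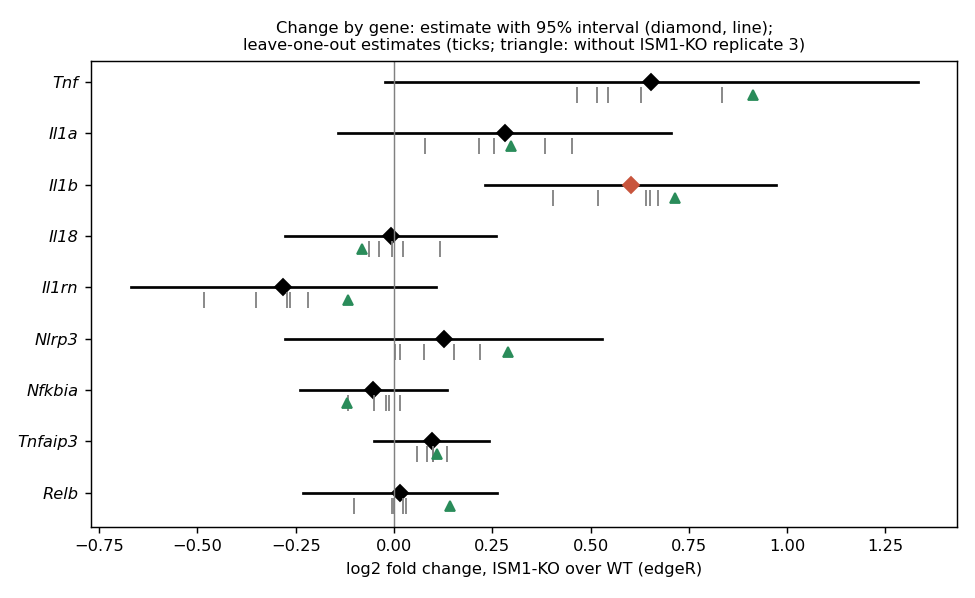
Log2 fold change of the 9 genes tested (diamonds, red for an adjusted p under 0.1) with the 95% interval, and the estimates with each library left out below it. The interval of *Il1b* runs from 0.23 to 0.97, and every other interval includes 0.

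The libraries labelled ISM1-KO differed among themselves in these genes. ISM1-KO replicate 3 was the lowest of the 3 in 6 of the 9 genes, *Tnf*, *Il1b*, *Il1rn*, *Nlrp3*, *Tnfaip3* and *Relb*, where it was the lowest in 39.1% of all genes tested. The coefficient of variation was higher in ISM1-KO than in WT in 8 of the 9, all but *Tnfaip3*, and in 60.0% of 18685 genes with a mean above 0 in both genotypes. The same library had by far the most *Zbtb16* reads, a gene that glucocorticoids induce, with 11147 counts against 2483 and 2530 in the other libraries labelled ISM1-KO and 510 to 874 in WT. *Fkbp5*, another glucocorticoid-induced gene, had 1768 counts in it and 640 to 863 in the others. The summed level of 9 glucocorticoid-induced genes was 1158 CPM in this library, 637 and 633 CPM in the other two, and 538.5 to 828 CPM in WT. *Zbtb16* supplied 285.7 CPM of it. Without *Zbtb16* the sum was 871.9 CPM in this library, 579.1 and 566.5 CPM in the other two, and 515.3 to 815 CPM in WT. *Mt1*, of the same list, was at its lowest in this library, at 13.56 CPM. Their part in the results of the cytokine genes was not tested.

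Levels between genes were compared per length, in the FPKM values deposited by the authors, which divide counts by library total and a gene length. Over the 6 libraries, *Nfkbia* was at a mean of 96.9 FPKM, followed by *Relb* (14.05), *Il18* (13.97), *Tnfaip3* (10.5), *Il1b* (8.48), *Il1rn* (4.89), *Il1a* (2.48), *Nlrp3* (1.71), *Tnf* (0.871) and *Il6* (0.0808). The feedback gene *Nfkbia* thus stood above all cytokine genes, and its range of 86.8 to 104.4 FPKM did not touch the next. The ranges overlapped between *Relb* and *Il18*, between *Tnfaip3* and *Il1b*, between *Il1rn* and *Il1a*, and between *Il1a* and *Nlrp3*, so the order of these neighbours is not settled. The lengths behind the FPKM values were 26.2% to 100% of the lengths listed in the count table. With the listed lengths, *Relb* and *Il18* changed places, as did *Il1rn* and *Il1a*, and the other ranks were the same.

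**Figure D4:**
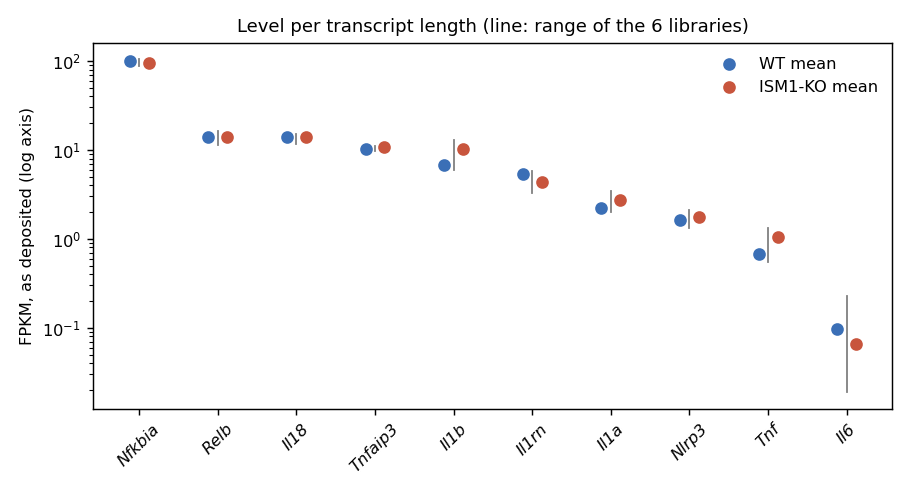
Deposited FPKM of the 10 genes on a log axis, with the WT mean (blue), the ISM1-KO mean (red) and the range over the 6 libraries (line). *Nfkbia* lies at 86.8 to 104.4 FPKM and *Il6* under 0.230 FPKM.

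The receptors and soluble binders of these cytokines gave no call among 10 genes tested by edgeR, with 2 at an unadjusted p under 0.05, which 15.8% of all genes tested reached. DESeq2 called 1 of them. *Il1r2*, the decoy receptor that traps IL-1, had 11, 14 and 21 counts in WT and 30, 38 and 24 in the libraries labelled ISM1-KO, without overlap (log2 fold change 0.98 ± 0.354 as standard error, adjusted p = 0.201 in edgeR). *Il18rap*, the accessory chain of the IL-18 receptor, was at 0.43 (adjusted p = 0.222), and was the gene that DESeq2 called (adjusted p = 0.0961). Among 9 genes of the inflammasome and of cytokine processing, none was called by edgeR or DESeq2, and 3 had an unadjusted p under 0.05, again beside 15.8% of all genes. These were *Gsdmd*, which encodes the pore protein of pyroptosis, at 0.15 (adjusted p = 0.273), *Casp1*, the gene of the enzyme that cuts IL-1β, at 0.36 (adjusted p = 0.294), and *Aim2*, a DNA sensor gene, at 0.29 (adjusted p = 0.303).

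None of the 5 NF-κB subunit genes was called by edgeR or DESeq2 or had an unadjusted p under 0.05, and their log2 fold changes lay between −0.06 and 0.10. *Nfkb1*, the gene of p105 and p50, stood at the upper end, without overlap between genotypes (adjusted p = 0.409 in edgeR). The 14 genes of upstream signalling also gave no call by either test and none under an unadjusted p of 0.05, within −0.08 to 0.11, with the kinase gene *Ikbkb* at 0.11 (adjusted p = 0.374). Of 15 feedback inhibitor genes, which include *Nfkbia* and *Tnfaip3*, none was called by edgeR or DESeq2 and 1 had an unadjusted p under 0.05. This was *Nfkbie*, the gene of IκBε, at 0.29 (adjusted p = 0.259), while *Bcl3*, an atypical IκB gene, was at −0.27 (adjusted p = 0.335). Their median was 0.05, beside 0.0043 over all genes tested.

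Of 15 inducible NF-κB target genes, 14 were tested, none was called by edgeR or DESeq2, and 1 had an unadjusted p under 0.05. That gene was *Ccl20*, which encodes an epithelial chemokine, with 9, 3 and 0 counts in WT and 32, 12 and 19 in the libraries labelled ISM1-KO, without overlap (log2 fold change 2.32 ± 0.724 as standard error, adjusted p = 0.139 in edgeR). *Ccl20* reached 0.5 CPM only in ISM1-KO replicate 1, so it was tested only through the genotype in which it was higher. *Sele*, the gene of endothelial E-selectin, was at 0.54 (adjusted p = 0.377). The median of the 14 was 0.09. Of 10 immediate early genes, 1 was called, *Ier3*, which rose by 0.31 on the log2 scale (adjusted p = 0.0849 in edgeR), and the median was −0.17. Its call was lost when any library but ISM1-KO replicate 3 was left out. Of 9 glucocorticoid-induced genes, *Zbtb16* rose (log2 fold change 3.05, adjusted p = 0.0297 in edgeR; 1.93 without ISM1-KO replicate 3, and not called without WT replicate 2) and the metallothionein gene *Mt1* fell by 0.55 on the log2 scale (adjusted p = 0.0163 in edgeR). Beside the calls in the immediate early and glucocorticoid-induced lists, 1.38% of all genes tested were called higher and 3.34% lower.

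**Figure D5:**
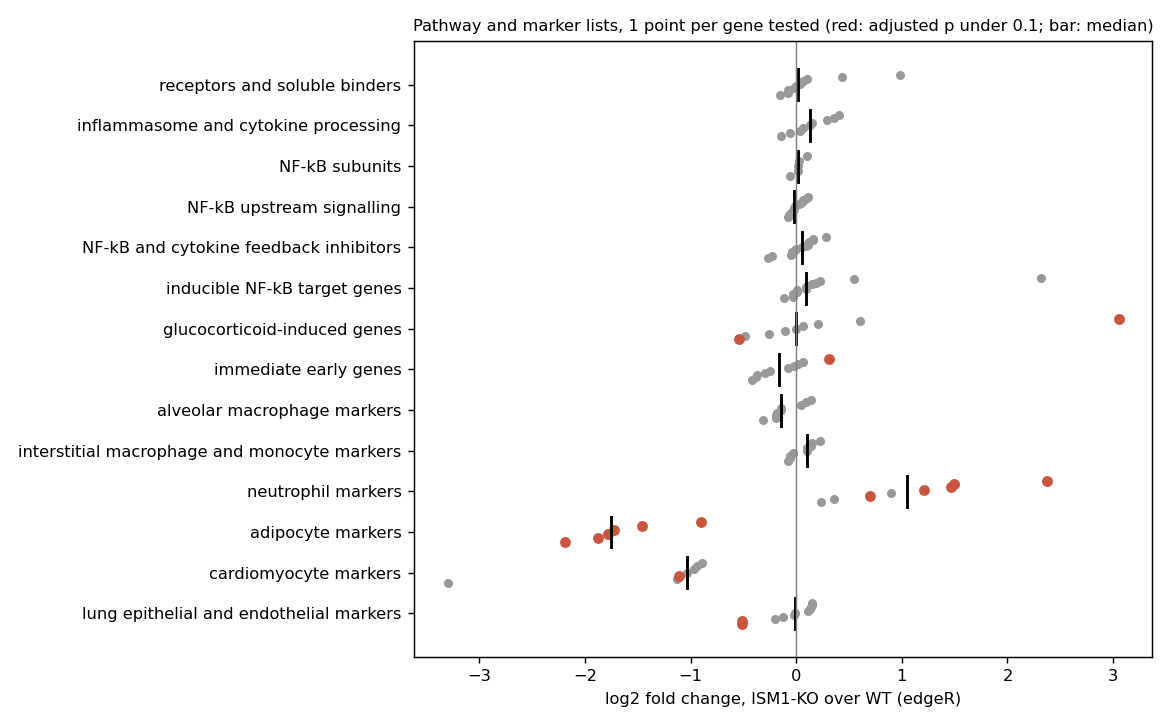
Log2 fold changes of the genes tested in each pathway and marker list, with the median as a bar and calls at an adjusted p under 0.1 in red. The NF-κB subunit and upstream genes lie within −0.08 to 0.11, and the neutrophil list has a median of 1.05.

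Markers of cells that make these cytokines were read in the same libraries. Of 10 neutrophil markers, 8 were tested and 5 were called higher in the libraries labelled ISM1-KO, *S100a8*, *S100a9*, *Cxcr2*, *Csf3r* and *Ngp*, and none lower, where 1.38% of all genes were called higher. DESeq2 also called 5, with *Retnlg* in place of *Csf3r*. Only *S100a8* and *S100a9* were called without WT replicate 2, ISM1-KO replicate 1 or ISM1-KO replicate 2, 3 genes were called without WT replicate 1, and 7 without ISM1-KO replicate 3. In the same order, these fits called 35, 78, 80, 242 and 570 of all genes higher, against 258 in the main test. The summed level of the neutrophil markers was 53.7 to 70.4 CPM in WT and 145, 121 and 83.6 CPM in ISM1-KO replicates 1, 2 and 3. The markers *Ly6g* and *Camp* did not pass the filter, *Ly6g* with 1 to 8 counts per library and *Camp* with 0 to 2 counts in WT and 7 to 8 in ISM1-KO. *Il1b* and this sum were both higher in all 3 libraries labelled ISM1-KO than in any WT library. Within ISM1-KO both were lowest in replicate 3, while the sum was highest in replicate 1 and *Il1b* in replicate 2. The part of neutrophil RNA in the rise of *Il1b* was not tested. None of 9 interstitial macrophage and monocyte markers was called by edgeR or DESeq2, and none had an unadjusted p under 0.05, with sums of 323 to 347 CPM in WT and 314 to 378 CPM in ISM1-KO. None of 9 alveolar macrophage markers was called by either test, with 2 at an unadjusted p under 0.05, among them *Marco* at −0.31 (adjusted p = 0.175), and their sums were 679 to 760 CPM and 632 to 727 CPM.

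Markers of lung epithelium and endothelium were abundant in all libraries, at summed levels of 42320 to 44700 CPM in WT and 35710 to 37940 CPM in ISM1-KO. Most of this gap was *Scgb1a1*, the gene of the club cell secretory protein, at 20920 and 14670 CPM on average. Without it the sums were 21973 to 22787 CPM in WT and 21315 to 22774 CPM in ISM1-KO. *Scgb1a1* and the ciliated cell gene *Foxj1* fell, although *Scgb1a1* was not called without WT replicate 2 or ISM1-KO replicate 2. The endothelial genes *Pecam1*, *Cdh5* and *Cldn5* had log2 fold changes of 0.14, 0.13 and 0.15 and were not called. All 6 adipocyte markers, *Adipoq*, *Plin1*, *Cidec*, *Lep*, *Fabp4* and *Car3*, fell in edgeR (5 in DESeq2), where 3.34% of all genes were called lower. Their sums were 156 to 198 CPM in WT and 37.1 to 95.9 CPM in ISM1-KO. Only *Plin1* and *Cidec* were called without WT replicate 2 or ISM1-KO replicate 2, and 3 genes were called without ISM1-KO replicate 1. In the same order, these fits called 115, 181 and 169 of all genes lower, against 624 in the main test. Of 7 cardiomyocyte markers, *Myl7* was called lower in edgeR and none in DESeq2, and with 1 library left out it was called only without ISM1-KO replicate 3. All 7 had a negative log2 fold change, with a median of −1.03. All 7 also had an unadjusted p under 0.05 in edgeR, as 15.8% of all genes tested did. With no filter beyond a total count above 0, all 7 were called lower, where 1066 of 31946 genes were. WT replicate 1 held 1581 CPM of cardiomyocyte markers, against 509 and 604 CPM in the other WT libraries. Without it the log2 fold change was 0.65 for *Il1b* and 0.84 for *Tnf*, and neither was called (adjusted p = 0.143 and 0.294 in edgeR). The part of these markers in the results of the cytokine genes was not tested.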

How the data were processed

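Per the labels and the study's methods, directional poly-A libraries were sequenced in pairs and aligned by STAR to GRCm38. The authors deposited a table of unnormalized read counts. The counting program, annotation release and strand setting are not given in the sources used here. The deposited FPKM values were used for levels between genes and as an alternative. Total counts were 37606133 to 42345042 per library, and every pair of libraries differed by more than sampling noise. Genes reaching 0.5 CPM in any 1 library were scaled by TMM and tested with edgeR 4.0.16 (estimateDisp, glmQLFit, glmQLFTest) in R 4.3.3, without covariates, and p-values were adjusted over all 18689 genes. A gene was called at an adjusted p under 0.1. The filter and the adjusted p of 0.1 are those of the study's results, which also required a 2-fold change. The study's methods also give protein-coding genes above a mean of 2 CPM, an adjusted p under 0.05 and a 2-fold change. In edgeR, *Il1b* was called neither with that filter (adjusted p = 0.105) nor at an adjusted p under 0.05. Calls here use the adjusted p alone, and the count with a 2-fold change, which *Il1b* does not reach, is given beside them. DESeq2 (version 1.42.0 here), the study's test, was an alternative. Fold changes are ISM1-KO over WT, and 95% intervals use the standard error and the test's degrees of freedom. Alternatives were RLE size factors, other filters, an adjusted p of 0.05, each library left out, the replicate number as a block, and limma 3.58.1 on log2(FPKM + 0.1) and log2(FPKM + 1). From each list, the genes called were named, otherwise at most the 2 with the smallest p, apart from *Aim2*, *Fkbp5*, *Ly6g*, *Camp*, *Retnlg*, *Pecam1*, *Cdh5* and *Cldn5*, which were chosen after their values were seen. The genes and lists were chosen with earlier results of these data known. The test was tried on simulated counts. Upstream sequences came from RefSeq.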

Additional observations from a re-analysis of the deposited data

How the results depend on the processing

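The number of genes called higher, 1 in the main test, was 0 with protein-coding genes above a mean of 2 CPM, with the replicate number as a block and at an adjusted p of 0.05, and between 0 and 2 with each library left out. It was 1 with DESeq2, RLE size factors, 0.5 CPM in at least 3 libraries and no filter. Over all genes, 258 were called higher in the main test, 466 with DESeq2, 264 with RLE size factors and 566 of 31946 with no filter. The all-gene number was 270 with 0.5 CPM in at least 3 libraries and 196 of 13358 with the protein-coding filter. It was 399 with the replicate block and between 35 and 570 with each library left out. The same-numbered mice are different animals, and the deviations of same-numbered libraries correlated at −0.0405, 0.0310 and 0.00101, so the block has no basis in the design. With the replicate block *Il1b* was at 0.59 (adjusted p = 0.113 in edgeR), and calls over all genes went from 882 to 1105. On FPKM, *Il1b* was at 0.57 and 0.51 in limma (adjusted p = 0.130 and 0.145 for the pseudocounts of 0.1 and 1). No gene was called lower or at least 2-fold changed under these alternatives.

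Among genes that did not pass, the sign turned in *Il18* (−0.081 to 0.12 with each library left out), *Nfkbia* (−0.12 to 0.015) and *Relb* (−0.10 to 0.14, and −0.0078 and −0.0063 on FPKM). The others kept their direction in every alternative.

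In the receptor list the calls went from 0 to 1 with DESeq2, with no filter and with the replicate block, and lay between 0 and 1 with each library left out. Among feedback inhibitors they lay between 0 and 1 with each library left out. Among inducible targets they were 1 with no filter and with the replicate block, and between 0 and 1 with each library left out. Glucocorticoid-induced genes called higher numbered 2 with no filter, 3 with the replicate block, and 0 to 1 with each library left out. Immediate early genes called higher numbered 0 at an adjusted p of 0.05 and 0 to 1 with each library left out, and 1 was called lower with no filter. The low counts of *Il6* and *Tnf* limit what can be said of them.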
